A study of Mus musculus with 8 samples.

Results

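Transcripts of 38 genes that mark or serve T cells and natural killer (NK) cells were followed through 8 mouse ear libraries. The members were a fixed list of gene symbols, from the T cell receptor chains to cytotoxic granule proteins, and all 38 were found among the 19126 genes of the deposited table. All 38 also passed the filter on low counts, which kept 15096 genes. The libraries came from the left ears of C57BL/6 mice of 6 to 8 weeks, an inbred laboratory strain, with a contact allergy to dinitrofluorobenzene (DNFB), a reactive chemical that sensitises skin. In the MMP-9-IN-1 group, 4 mice had 10 mg/kg of this inhibitor of matrix metalloproteinase 9, a secreted gelatin-cleaving protease, injected into the peritoneum. In the vehicle group, 4 mice had the solvent alone, a mixture of DMSO (10%), PEG300 (40%) and PBS (50%). All 8 mice shared the sensitisation with 25 µL of 0.3% DNFB, the ear challenge with 10 µL of 0.25% DNFB on day 6 and a treatment of 4 days, so both groups describe inflamed skin; ears without DNFB were not analysed here. Each library is called below by its treatment and the mouse number in its title.

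T cells recognise antigen through a receptor whose signal is carried by the CD3 chains, and the coreceptors CD4 and CD8 divide them into helper and cytotoxic cells. In contact allergy, sensitised T cells enter the challenged skin, release interferon gamma and kill hapten-bearing cells with granzymes and perforin, while regulatory T cells restrain the reaction. NK cells carry many of the same cytotoxic proteins and receptors without a rearranged antigen receptor, so genes such as Nkg7, Gzmb, Klrk1 and Klrd1 do not separate NK cells from cytotoxic T cells.

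The libraries held 13863145 to 18512200 reads, and 17028 to 17629 genes had at least 1 read. Levels are given in TPM, the authors' measure of transcript abundance scaled to gene length. Summed over the 38 genes, the level was 173, 217, 523 and 921 TPM in MMP-9-IN-1 ears 1 to 4, against 134, 165, 489 and 914 TPM in vehicle ears 1 to 4. The groups overlapped over almost their whole range, and in each group the ears numbered 3 and 4 held more than those numbered 1 and 2. Tnfrsf18 and Tnfrsf4 made up much of the low sums, at 75.7 and 20.2 TPM in MMP-9-IN-1 ear 1 and 28.6 and 30.3 TPM in vehicle ear 1. The 4 CD3 chains alone summed to 7.98, 19.2, 71.4 and 115 TPM in MMP-9-IN-1 ears 1 to 4, against 3.29, 6.70, 71.8 and 132 TPM in vehicle ears 1 to 4. Few reads stood behind the low ears: 13 and 6 members had under 20 reads in MMP-9-IN-1 ears 1 and 2, and 16 and 13 in vehicle ears 1 and 2, while none did in ears 3 and 4 of either group. In RNA from whole ears, fewer cells of a type and less RNA per cell cannot be told apart.

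No T or NK cell gene passed the test between MMP-9-IN-1 and vehicle ears. Of the 38 members, 0 were called in either direction by edgeR's quasi-likelihood test with Benjamini-Hochberg adjustment at a threshold of 0.05, where 0% of the 15096 genes were called, and the adjusted p was 0.999 or higher for every member. At an unadjusted p under 0.05, the count was 0 members, beside 157 genes or 1.04% of all tested. DESeq2, with 332 genes at an unadjusted p under 0.05, limma-voom and limma-trend also called 0 genes. In CPM, read counts scaled to library size, the 4 MMP-9-IN-1 and 4 vehicle values overlapped for all 38 members, beside 1.19% of all genes whose groups did not overlap. The estimates lay on both sides of 0, with 21 members higher and 17 lower with MMP-9-IN-1 and 54.5% of all genes higher. Their median log2 fold change of MMP-9-IN-1 over vehicle was 0.065, against 0.026 over all genes tested, and 37 of the 38 estimates were within 0.5 of 0.

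These estimates were imprecise. Among the members the standard error had a median of 0.91 on the log2 scale, beside 0.26 over all genes. The highest library exceeded the lowest by a median of 10.3-fold in CPM within the MMP-9-IN-1 group and 13.4-fold within the vehicle group, beside 1.60-fold and 1.76-fold over all genes. The 95% interval of a member's fold change had a median lower bound of 0.243 and a median upper bound of 4.78, so that for most members a change of several-fold in either direction was not detectable with these 8 ears.

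**Figure D1:**
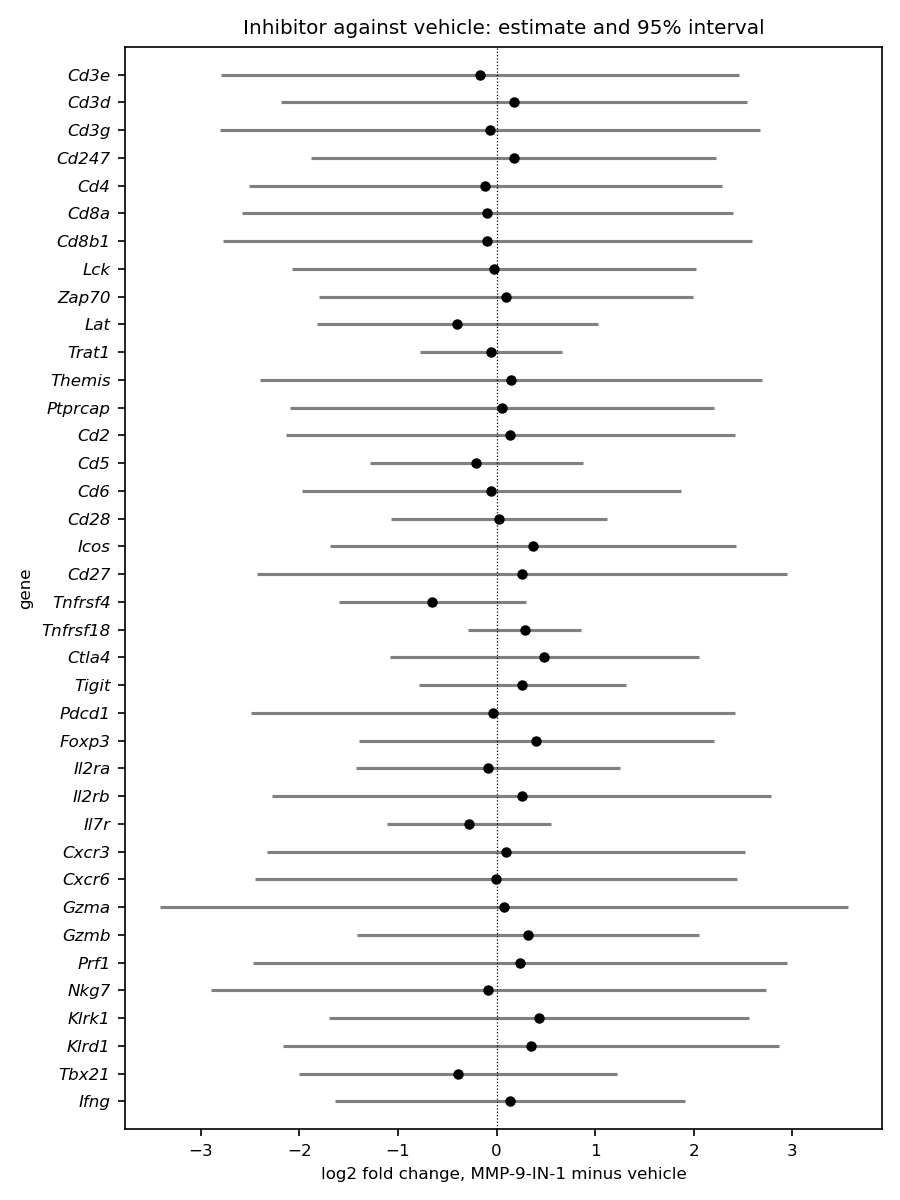
Log2 fold change of each of the 38 genes, MMP-9-IN-1 over vehicle, with the 95% interval from edgeR, grouped by role. All 38 intervals cross 0, and those of Tnfrsf18, Trat1 and Il7r are among the narrow ones.

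The T cell receptor complex was present in every ear, at levels that spanned more than an order of magnitude. Cd3g, the CD3 gamma chain, had 3.18, 11.1, 38.6 and 63.6 TPM in MMP-9-IN-1 ears 1 to 4, against 1.49, 2.35, 42.5 and 77.7 TPM in vehicle ears 1 to 4. Cd3e, the CD3 epsilon chain which pairs with the gamma and with the delta chain, had 1.31, 1.41, 5.77 and 9.09 TPM in MMP-9-IN-1 ears 1 to 4, against 0.06, 0.64, 6.08 and 13.1 TPM in vehicle ears 1 to 4. In both groups ears 1 and 2 were low and ears 3 and 4 high, and vehicle ear 1 held 1 Cd3e read, beside 211 in vehicle ear 4. Cd3d, the delta chain, ranged from 1.81 to 25.1 TPM with MMP-9-IN-1 and 1.08 to 24.9 TPM with vehicle, and Cd247, the zeta chain that carries most of the signalling motifs, ranged from 1.68 to 17.2 TPM with MMP-9-IN-1 and 0.66 to 16.1 TPM with vehicle. All 4 chains had every ear numbered 3 or 4 above every ear numbered 1 or 2. Cd3g averaged 29.1 ± 27.6 TPM with MMP-9-IN-1 and 31.0 ± 36.5 TPM with vehicle (SD, n = 4 each), and the log2 fold change of MMP-9-IN-1 over vehicle was -0.064 ± 1.19 (SE). That of Cd3e was -0.17 ± 1.14, with a 95% interval of -2.79 to 2.46. Of the 4 chains, 2 had a higher estimate and 2 a lower one, and 0 passed the test.

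**Figure D2:**
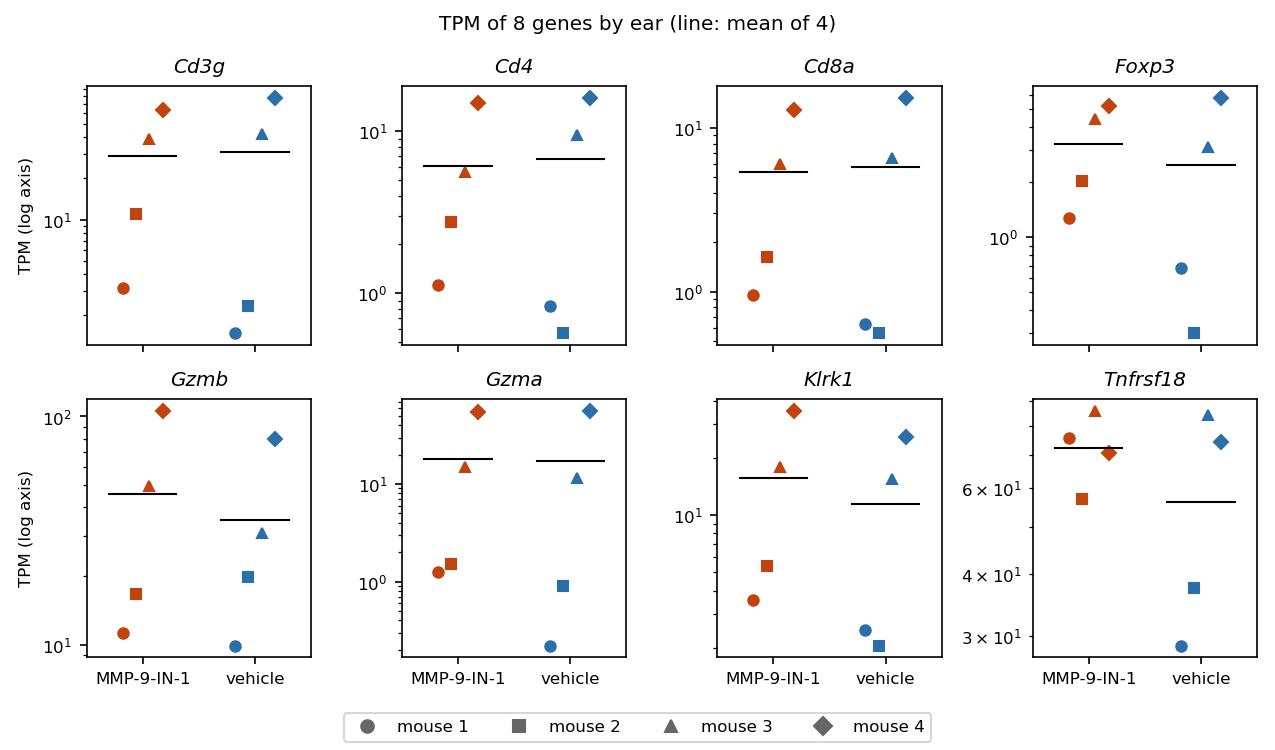
TPM of 8 genes (log axis) in 4 MMP-9-IN-1 ears, left, and 4 vehicle ears, right, with a marker for each mouse number and a line at the group mean. Apart from Tnfrsf18, each gene has the ears of mice 3 and 4 above those of mice 1 and 2 in both groups, and the groups overlap.

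The genes of 3 CD3 chains lie side by side, and their start regions are shown. These chains varied together across the ears, as did most members, and a link between position and level was not tested. RefSeq promoter windows, 250 bases before to 50 bases after a gene's start, were at hand for 29 of the 38 members on build GRCm38.p6, an older build than the GRCm39 named for the libraries. The window of Cd3g lies at chr9:44980382-44980681 on the minus strand, that of Cd3d at chr9:44981536-44981835 on the plus strand and that of Cd3e at chr9:45009562-45009861 on the minus strand. The starts of Cd3g and Cd3d are 1355 bases apart and point away from each other. Gzma, the granzyme A gene, is shown for its wide range across ears and lies at chr13:113100932-113101231 on the minus strand. Tnfrsf18 is shown as the member with the highest mean TPM and little spread, and lies at chr4:156026072-156026371 on the plus strand. Each window is written 5′ to 3′ on the gene's strand, and capitals mark a match to one of 3 short motifs. Both strands were searched. The motif of the ETS family was CAGGAA, that of RUNX factors, which drive T cell and cytotoxic genes, was TGTGGT, and that of GATA factors was spelled AGATAA, and their matches did not overlap in these windows.
Cd3g: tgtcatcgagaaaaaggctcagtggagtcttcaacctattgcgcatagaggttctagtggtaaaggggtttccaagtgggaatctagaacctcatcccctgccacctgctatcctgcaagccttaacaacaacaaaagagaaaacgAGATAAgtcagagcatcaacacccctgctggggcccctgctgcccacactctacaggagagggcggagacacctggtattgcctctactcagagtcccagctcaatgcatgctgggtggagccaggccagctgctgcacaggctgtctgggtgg
Cd3d: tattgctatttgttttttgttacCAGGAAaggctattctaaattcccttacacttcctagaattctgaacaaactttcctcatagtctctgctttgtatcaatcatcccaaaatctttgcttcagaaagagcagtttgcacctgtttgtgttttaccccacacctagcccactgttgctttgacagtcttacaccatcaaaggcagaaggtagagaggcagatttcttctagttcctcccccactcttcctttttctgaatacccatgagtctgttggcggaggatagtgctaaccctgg
Cd3e: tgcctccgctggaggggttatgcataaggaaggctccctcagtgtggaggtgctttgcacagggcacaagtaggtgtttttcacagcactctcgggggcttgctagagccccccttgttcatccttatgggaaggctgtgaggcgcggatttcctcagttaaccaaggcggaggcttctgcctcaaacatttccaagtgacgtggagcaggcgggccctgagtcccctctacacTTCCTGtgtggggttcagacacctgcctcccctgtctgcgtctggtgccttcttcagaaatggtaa
Gzma: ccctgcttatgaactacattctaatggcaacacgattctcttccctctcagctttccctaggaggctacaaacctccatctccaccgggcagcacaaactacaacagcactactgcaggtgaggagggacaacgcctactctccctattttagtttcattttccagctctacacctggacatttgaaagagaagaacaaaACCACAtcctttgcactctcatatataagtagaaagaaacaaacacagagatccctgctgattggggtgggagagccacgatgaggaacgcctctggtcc
Tnfrsf18: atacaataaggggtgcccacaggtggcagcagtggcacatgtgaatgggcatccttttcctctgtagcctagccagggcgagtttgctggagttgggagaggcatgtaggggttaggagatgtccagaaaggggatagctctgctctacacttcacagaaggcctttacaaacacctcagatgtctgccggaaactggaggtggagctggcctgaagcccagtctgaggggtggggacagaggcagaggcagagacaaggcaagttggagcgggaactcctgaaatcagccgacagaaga

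The ETS letters were found in the windows of Cd3d and Cd3e, the RUNX letters in that of Gzma, the GATA letters in that of Cd3g, and none of the motifs in that of Tnfrsf18. Over the 34 windows of the members, 18 (52.9%) held the ETS letters, beside 30.6% of all 32851 windows in the table. The RUNX letters were in 13 (38.2%), beside 16.8% of all windows, and the GATA letters in 3 (8.82%), beside 11.2%. These are matches of letters and not binding sites, and no binding was measured.

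The coreceptors followed the CD3 chains. Cd4, which marks helper T cells and is also found on some myeloid cells, had 1.13, 2.74, 5.63 and 14.9 TPM in MMP-9-IN-1 ears 1 to 4, against 0.83, 0.57, 9.40 and 16.1 TPM in vehicle ears 1 to 4. Cd8a, the CD8 alpha chain, had 0.95, 1.63, 5.99 and 12.8 TPM in MMP-9-IN-1 ears 1 to 4, against 0.63, 0.56, 6.55 and 15.2 TPM in vehicle ears 1 to 4. For both genes the highest and the lowest of the 8 values were vehicle ears, so the MMP-9-IN-1 values lay within the vehicle range. Cd8b1, the beta chain of the CD8 coreceptor, ranged from 1.77 to 26.1 TPM with MMP-9-IN-1 and 0.62 to 30.7 TPM with vehicle. All 3 estimates were slightly below 0, with a log2 fold change of -0.11 ± 1.04 (SE) for Cd4 and -0.094 ± 1.08 for Cd8a, and 0 of the 3 passed the test. The balance of CD8 over CD4 transcripts, as log2 of the Cd8a over Cd4 TPM ratio with 0.1 added to each, averaged -0.27 ± 0.33 in MMP-9-IN-1 ears and -0.24 ± 0.23 in vehicle ears (SD, n = 4 each). The difference of -0.029 had an exact two-sided permutation p of 0.886 (adjusted p = 1 over 5 ratios), where the smallest p that 4 against 4 allows is 0.0286.

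Receptor-proximal kinases and adaptors split into genes that followed the CD3 chains and genes that did not. Lck, the kinase that phosphorylates the CD3 chains, had 3.12, 3.98, 12.9 and 22.3 TPM in MMP-9-IN-1 ears 1 to 4, against 1.62, 2.01, 13.1 and 26.1 TPM in vehicle ears 1 to 4. Zap70, the kinase recruited to those chains, ranged from 1.42 to 9.83 TPM with MMP-9-IN-1 and 1.14 to 10.4 TPM with vehicle. Themis, a regulator of thymocyte selection, had the lowest mean TPM of the members, and Ptprcap, a partner of the CD45 phosphatase, ranged from 6.20 to 56.8 TPM with MMP-9-IN-1 and 3.63 to 61.5 TPM with vehicle. In these 4 genes the ears numbered 3 and 4 were above the others in both groups. Lat, the scaffold on which the signal is assembled, had 4.25, 6.23, 12.6 and 24.5 TPM in MMP-9-IN-1 ears 1 to 4, against 11.3, 3.72, 15.9 and 29.2 TPM in vehicle ears 1 to 4. Vehicle ear 1, among the lowest for the CD3 chains, was in the middle for Lat. Trat1, an adaptor of the receptor complex, ranged only from 0.74 to 1.92 TPM with MMP-9-IN-1 and 1.13 to 1.84 TPM with vehicle. Of the 6 genes, 3 had a higher and 3 a lower estimate and 0 passed the test; the log2 estimate was -0.023 ± 0.89 (SE) for Lck and -0.40 ± 0.62 for Lat.

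Among the surface receptors of adhesion and tuning, Cd2, which binds CD48 in the mouse and strengthens contact with antigen-presenting cells, had 4.09, 7.19, 29.9 and 55.5 TPM in MMP-9-IN-1 ears 1 to 4, against 3.06, 3.81, 28.1 and 52.8 TPM in vehicle ears 1 to 4. The ears numbered 3 and 4 of both groups lay close together for this gene, far above the others, and its log2 fold change was 0.14 ± 0.99 (SE). Cd5, a brake on receptor signalling, ranged from 1.96 to 7.08 TPM with MMP-9-IN-1 and 2.27 to 9.17 TPM with vehicle, a narrower span than that of Cd2, and Cd6, a related scavenger-family receptor, ranged from 0.80 to 6.92 TPM with MMP-9-IN-1 and 0.61 to 7.31 TPM with vehicle. Of these 3 genes, 1 had a higher and 2 a lower estimate, and 0 passed the test.

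The costimulatory receptors held the members least like the CD3 chains. Tnfrsf18, which encodes GITR, a receptor abundant on regulatory and activated T cells, had 75.7, 57.0, 86.1 and 70.7 TPM in MMP-9-IN-1 ears 1 to 4, against 28.6, 37.5, 84.5 and 74.3 TPM in vehicle ears 1 to 4. Vehicle ears 1 and 2 were low and the other 6 ears lay between 57.0 and 86.1 TPM, so that the groups overlapped. The log2 fold change was 0.28 ± 0.25 (SE), with a 95% interval of -0.29 to 0.86 and an unadjusted p of 0.287 by edgeR. Tnfrsf4, which encodes OX40, a receptor that sustains activated T cells, had 20.2, 21.2, 22.9 and 26.2 TPM in MMP-9-IN-1 ears 1 to 4, against 30.3, 49.8, 16.7 and 23.7 TPM in vehicle ears 1 to 4. Here vehicle ears 1 and 2 were the highest and vehicle ear 3 the lowest, and the 4 MMP-9-IN-1 values lay close together within the vehicle range. Its log2 fold change of -0.65 ± 0.41 (SE) had the smallest unadjusted p of any member by edgeR, 0.153, and an adjusted p of 0.999. Without vehicle ear 2 the log2 fold change of Tnfrsf4 was -0.16.

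Cd28, the main costimulatory receptor of naive T cells, had 1.45, 1.84, 3.54 and 5.21 TPM in MMP-9-IN-1 ears 1 to 4, against 2.80, 0.92, 2.91 and 4.53 TPM in vehicle ears 1 to 4. Vehicle ear 1 was close to vehicle ear 3, where the CD3 chains were many-fold higher. Icos, an inducible relative of CD28, had 1.18, 3.33, 8.17 and 15.1 TPM in MMP-9-IN-1 ears 1 to 4, against 1.10, 1.12, 5.70 and 13.5 TPM in vehicle ears 1 to 4. Icos and Cd27, a receptor that supports memory T cells and ranged from 0.71 to 10.8 TPM with MMP-9-IN-1 and 0.20 to 10.4 TPM with vehicle, both followed the CD3 chains. Of the 5 costimulatory receptors, 4 had a higher and 1 a lower estimate, and 0 passed the test. The log2 fold change was 0.37 ± 0.90 (SE) for Icos and 0.024 ± 0.48 for Cd28.

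Inhibitory receptors and Foxp3 described the restrained end of the response. Ctla4, which competes with CD28 for its ligands, had 2.07, 6.94, 13.2 and 16.9 TPM in MMP-9-IN-1 ears 1 to 4, against 3.88, 1.61, 8.42 and 13.4 TPM in vehicle ears 1 to 4. Foxp3, the transcription factor that defines regulatory T cells, had 1.27, 2.03, 4.45 and 5.23 TPM in MMP-9-IN-1 ears 1 to 4, against 0.68, 0.30, 3.11 and 5.79 TPM in vehicle ears 1 to 4. For both, ears 3 and 4 were above ears 1 and 2 in each group, and the groups overlapped. Foxp3 averaged 3.25 ± 1.89 TPM with MMP-9-IN-1 and 2.47 ± 2.54 TPM with vehicle (SD, n = 4 each), and its log2 fold change of 0.40 ± 0.78 (SE) had a 95% interval of the fold change from 0.380 to 4.61. Pdcd1, which encodes PD-1, ranged from 0.18 to 3.47 TPM with MMP-9-IN-1 and 0.14 to 3.77 TPM with vehicle, and Tigit, an inhibitory receptor shared by T and NK cells, ranged from 1.67 to 6.40 TPM with MMP-9-IN-1 and 0.89 to 6.92 TPM with vehicle. The reads behind 1 TPM of Tigit varied from 155 to 304 between libraries and were far more than for any other member, so its TPM and read counts do not scale alike; its log2 fold change on the counts was 0.26 ± 0.46. Of the 3 inhibitory receptors, 2 had a higher and 1 a lower estimate, and 0 passed the test.

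Cytokine receptors differed in how closely they followed the CD3 chains. Il2ra, the high-affinity chain of the interleukin-2 receptor found on activated and regulatory T cells, had 1.22, 3.25, 5.05 and 8.37 TPM in MMP-9-IN-1 ears 1 to 4, against 1.53, 3.82, 4.28 and 8.10 TPM in vehicle ears 1 to 4. Il2rb, the signalling chain shared with interleukin-15, ranged from 1.65 to 27.9 TPM with MMP-9-IN-1 and 1.00 to 24.3 TPM with vehicle and was highest in ear 4 of both groups. Il7r, the receptor chain for the survival cytokine interleukin-7, had 4.91, 11.9, 7.34 and 13.7 TPM in MMP-9-IN-1 ears 1 to 4, against 11.7, 9.44, 7.75 and 12.8 TPM in vehicle ears 1 to 4. The ears numbered 4 were the highest for Il7r too, but those numbered 3 lay below ear 2 of their own group. Of the 3, 1 had a higher and 2 a lower estimate, and 0 passed the test; the log2 fold change was -0.082 ± 0.58 (SE) for Il2ra and -0.28 ± 0.36 for Il7r.

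The chemokine receptors that guide effector T cells into inflamed skin showed the spread of the CD3 chains. Cxcr3, the receptor for interferon-induced chemokines, had 0.88, 1.51, 4.82 and 13.7 TPM in MMP-9-IN-1 ears 1 to 4, against 0.64, 0.63, 5.68 and 12.7 TPM in vehicle ears 1 to 4. Cxcr6, the receptor for Cxcl16, had 1.18, 1.77, 6.47 and 15.2 TPM in MMP-9-IN-1 ears 1 to 4, against 0.79, 0.58, 7.64 and 15.8 TPM in vehicle ears 1 to 4. Ear 4 of either group held most and the same-numbered ears of the groups were close for ears 3 and 4. The estimates were 0.10 ± 1.06 (SE) for Cxcr3 and -0.0011 ± 1.07 for Cxcr6, and 0 of 2 passed the test. Of their ligands, Cxcl10 had 85.3, 74.7, 159 and 188 TPM in MMP-9-IN-1 ears 1 to 4, against 109, 177, 165 and 175 TPM in vehicle ears 1 to 4. Cxcl16 had 34.2, 71.0, 76.8 and 111 TPM in MMP-9-IN-1 ears 1 to 4, against 52.4, 66.4, 70.2 and 92.4 TPM in vehicle ears 1 to 4. Ears 3 and 4 were above ears 1 and 2 in both groups for Cxcl16, but for Cxcl10 in the MMP-9-IN-1 group only. Of the 3 ligand genes in the table, Cxcl9, Cxcl10 and Cxcl16, 0 passed the test, with a median log2 fold change of -0.46.

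Among the cytotoxic effectors was the member with the widest range. Gzma, a granule protease of killer lymphocytes, had 1.24, 1.52, 15.1 and 54.3 TPM in MMP-9-IN-1 ears 1 to 4, against 0.22, 0.89, 11.5 and 56.6 TPM in vehicle ears 1 to 4. Gzmb, which encodes the caspase-activating granzyme B, had 11.2, 16.6, 49.4 and 106 TPM in MMP-9-IN-1 ears 1 to 4, against 9.89, 19.8, 30.9 and 79.4 TPM in vehicle ears 1 to 4. Prf1, the pore-forming perforin, had 0.22, 0.80, 2.97 and 6.32 TPM in MMP-9-IN-1 ears 1 to 4, against 0.14, 0.24, 2.54 and 5.89 TPM in vehicle ears 1 to 4. In all 3, ear 4 was the highest of each group, and for Gzma the 2 lowest ears of the series were vehicle ears 1 and 2, with 2 and 9 reads. Nkg7, a granule membrane protein, ranged from 2.86 to 66.3 TPM with MMP-9-IN-1 and 1.66 to 72.5 TPM with vehicle. Gzmb averaged 45.8 ± 43.6 TPM with MMP-9-IN-1 and 35.0 ± 30.8 TPM with vehicle (SD, n = 4 each), with a log2 fold change of 0.32 ± 0.76 (SE), and the 95% interval of the fold change of Gzma ran from 0.0936 to 11.8. Of the 4 genes, 3 had a higher and 1 a lower estimate, and 0 passed the test. Granzymes are close relatives, and how reads shared between them were assigned is not given in the sources used here.

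Klrk1, which encodes the activating receptor NKG2D, had 3.58, 5.37, 17.9 and 35.5 TPM in MMP-9-IN-1 ears 1 to 4, against 2.49, 2.05, 15.5 and 25.9 TPM in vehicle ears 1 to 4. Klrd1, the CD94 partner of the NKG2 receptors, ranged from 3.37 to 48.1 TPM with MMP-9-IN-1 and 1.05 to 41.4 TPM with vehicle. Both were higher in ears 3 and 4 than in ears 1 and 2, and neither estimate passed the test, with log2 fold changes of 0.43 ± 0.93 (SE) and 0.35 ± 1.10. The more specific NK receptor Ncr1, from a further list of 18 NK cell genes, was low: it had 0, 0.13, 1.04 and 3.10 TPM in MMP-9-IN-1 ears 1 to 4, against 0, 0.12, 0.82 and 2.30 TPM in vehicle ears 1 to 4. It is listed at 0 in MMP-9-IN-1 ear 1 and in vehicle ear 1. That list was not exclusive to NK cells, as it shared a gene with a list of mast cell genes. Of its genes 14 were tested, 10 with a higher and 4 with a lower estimate, 0 passed the test and the median log2 fold change was 0.13.

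Of the type 1 pair, Tbx21, the transcription factor T-bet that drives interferon gamma, had 0.28, 0.58, 1.66 and 3.27 TPM in MMP-9-IN-1 ears 1 to 4, against 1.45, 1.31, 0.92 and 3.22 TPM in vehicle ears 1 to 4. Ifng, interferon gamma itself, had 0.79, 0.70, 3.87 and 5.63 TPM in MMP-9-IN-1 ears 1 to 4, against 0.62, 0.99, 3.36 and 4.68 TPM in vehicle ears 1 to 4. Vehicle ears 1 and 2 were above vehicle ear 3 for Tbx21 but below it for Ifng, where ears 3 and 4 were above ears 1 and 2 in both groups. The estimate was -0.39 ± 0.70 (SE) on the log2 scale for Tbx21 and 0.14 ± 0.77 for Ifng, and 0 of 2 passed the test. Behind the low Ifng values stood 8 and 9 reads in MMP-9-IN-1 ears 1 and 2, and 8 and 14 in vehicle ears 1 and 2.

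**Figure D3:**
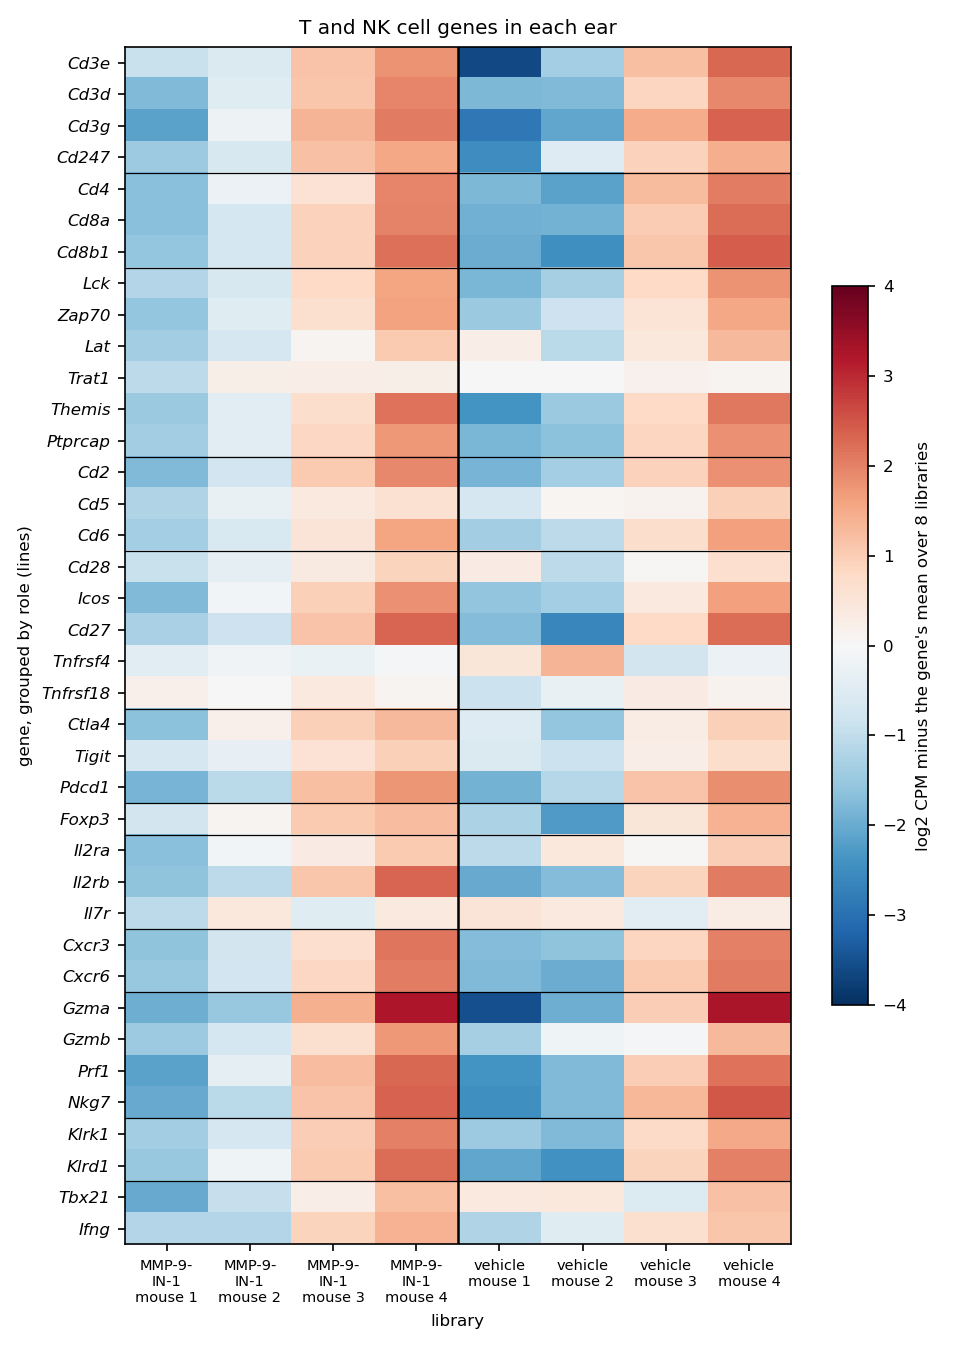
Level of the 38 genes, by role, in the 4 MMP-9-IN-1 ears, left, and the 4 vehicle ears, right, as log2 CPM relative to the gene's mean. Columns 3 and 4 of each group are high for most genes. For Lat, Trat1, Cd28, Tnfrsf4, Tnfrsf18, Il2ra, Il7r and Tbx21, some column numbered 3 or 4 lies below a column numbered 1 or 2.

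The main pattern among the 38 genes lay across the groups. In TPM, the 2 ears numbered 4 were the 2 highest of the series for 35 of the 38 genes. For 30 of the 38, every ear numbered 3 or 4 lay above every ear numbered 1 or 2 in CPM, which was the case for 19.5% of all genes tested. The 8 others were Lat, Trat1, Cd28, Tnfrsf4, Tnfrsf18, Il2ra, Il7r and Tbx21. The mouse number was then tested as a term with 4 levels beside treatment, an analysis added after this pattern was seen. Of the 38 members, 27 passed at an adjusted p under 0.05 (edgeR quasi-likelihood F test), where 7.86% of all genes tested passed. The 11 members that did not pass were Cd3e, Lat, Trat1, Cd5, Cd28, Tnfrsf4, Tnfrsf18, Ctla4, Foxp3, Il7r and Tbx21. That count and the share of all genes both depended on single libraries. The count was 0 without MMP-9-IN-1 ear 3 or 4 or vehicle ear 2, 3 or 4, where 0% of all genes passed. It was 15 without MMP-9-IN-1 ear 2, where 0.773% of all genes passed. In these fits the members with an unadjusted p under 0.05 numbered 30 to 32. The share of all genes at that level was not counted, so this number has no background to be read against. Without MMP-9-IN-1 ear 1 the count was 26, beside 9.83% of all genes, and without vehicle ear 1 it was 30, beside 13.3%. The labels do not say whether a number marks a shared cage, day or batch, and what the number stands for was not tested.

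Levels of other cells moved with the ears as well. Summed over 12 dendritic and Langerhans cell genes, the level was 442, 1086, 2802 and 4903 TPM in MMP-9-IN-1 ears 1 to 4, against 361, 534, 3001 and 4596 TPM in vehicle ears 1 to 4. Ears 3 and 4 were high in both groups, as for the T and NK cell genes. For 13 neutrophil genes it was 3575, 23861, 3217 and 3983 TPM in MMP-9-IN-1 ears 1 to 4, against 31342, 36094, 4353 and 3745 TPM in vehicle ears 1 to 4, with Elane and Mpo at 0 in some libraries. The 3 ears with the highest neutrophil sums were all numbered 1 or 2 and low in CD3 chains. MMP-9-IN-1 ear 1 was low in both sums. S100a8 and S100a9 made up most of the neutrophil sum in every ear, and had 1882 and 1411 TPM in MMP-9-IN-1 ear 1. Single neutrophil genes differed: Ly6g had 9.27 TPM in MMP-9-IN-1 ear 1, against 2.13 and 2.48 TPM in MMP-9-IN-1 ears 3 and 4. In the same ears Ngp had 16.63 against 0.23 and 1.18 TPM, and Csf3r 20.75 against 44.05 and 83.99 TPM. Summed red blood cell genes ranged from 165 to 4540 TPM with MMP-9-IN-1 and from 194 to 17195 TPM with vehicle, and skeletal muscle genes from 318 to 2765 TPM with MMP-9-IN-1 and from 236 to 1388 TPM with vehicle. For 14 monocyte and macrophage genes the ranges were 655 to 5546 TPM with MMP-9-IN-1 and 2283 to 3592 TPM with vehicle, and for 8 epidermal genes 14903 to 22874 TPM with MMP-9-IN-1 and 9195 to 25257 TPM with vehicle. The part of these cells in the spread of the T and NK cell genes was not tested.

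Each MMP-9-IN-1 ear was also set against the vehicle ear of its number. Over all genes, ears of different numbers within 1 and 2 or within 3 and 4 varied together as well. Their correlations were 0.272 to 0.685, against 0.397 to 0.710 for same-numbered ears. The median log2 CPM difference over the 38 genes, MMP-9-IN-1 minus vehicle, was 0.11 for number 1, 0.69 for number 2, 0.13 for number 3 and 0.063 for number 4, beside medians over all genes of 0.035, 0.010, 0.0097 and 0.036. Members higher with MMP-9-IN-1 were 25 of 38 for number 1, 31 for number 2, 25 for number 3 and 22 for number 4, beside 53.3%, 50.7%, 52.0% and 56.0% of all genes. With the mouse number as a block in edgeR's fit, 30 of the 38 estimates were above 0, with a median of 0.24. Again 0 members were called. At an unadjusted p under 0.05 the block gave 1 member, Il2rb, whose adjusted p by edgeR's quasi-likelihood test was 0.717, beside 724 of all genes.

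**Figure D4:**
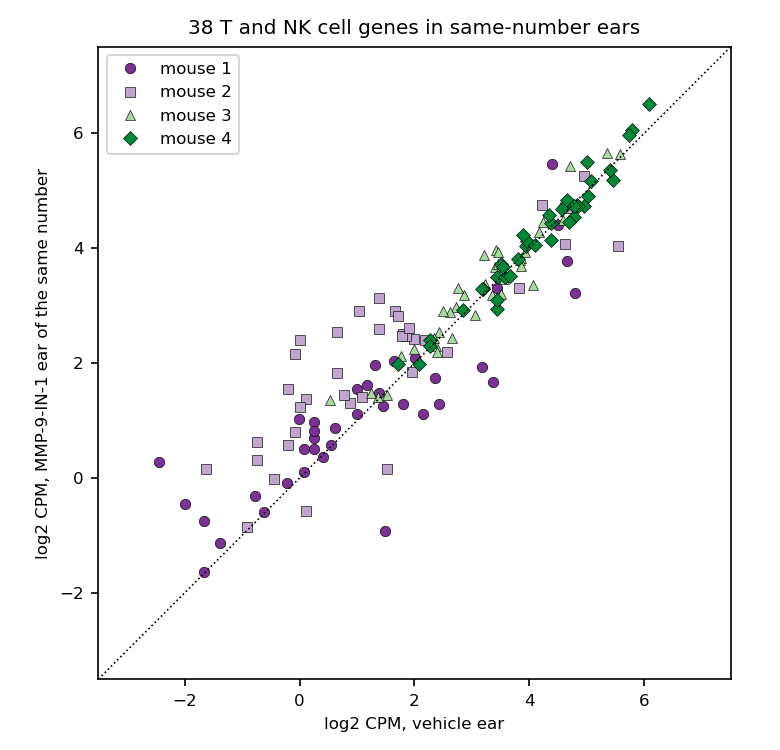
Log2 CPM of each of the 38 genes in the MMP-9-IN-1 ear (vertical axis) against the vehicle ear with the same mouse number (horizontal axis), with a marker for each number and a dotted line where both are equal. Points of mice 3 and 4 lie near the line at high levels, and 31 of the 38 points of mouse 2 lie above it.

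Ratios within an ear asked whether the make-up of the T cell transcripts differed between the groups. Of the 5 ratios compared, Cd8a over Cd4 is given above. As log2 of TPM with 0.1 added, Foxp3 over Cd3e averaged -0.17 ± 0.54 in MMP-9-IN-1 ears and -0.18 ± 1.65 in vehicle ears (SD, n = 4 each), a difference of 0.0018 with an exact permutation p of 1. Gzmb over Cd3e averaged 3.27 ± 0.27 in MMP-9-IN-1 ears and 3.91 ± 1.75 in vehicle ears, a difference of -0.64 with an exact permutation p of 0.486. In vehicle ear 1 Cd3e rested on 1 read, and both ratios were highest there, at 2.29 for Foxp3 and 5.96 for Gzmb. Ifng over Cd3e averaged -0.71 ± 0.15 in MMP-9-IN-1 ears and 0.11 ± 1.61 in vehicle ears, a difference of -0.81 with an exact permutation p of 0.4. Cd3e over Ptprc, the CD45 gene of all leukocytes, averaged -3.45 ± 0.99 in MMP-9-IN-1 ears and -4.89 ± 3.00 in vehicle ears, a difference of 1.44 with an exact permutation p of 0.429. The last 3 adjusted p-values were 0.81. Without vehicle ear 1 the difference was 0.31 for Cd3e over Ptprc and -0.13 for Ifng over Cd3e, and without vehicle ear 4 it was 2.34 and -1.34.

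Because of that single read, the 4 ratios with Cd3e were repeated with the summed TPM of the 4 CD3 chains, a choice made after the data were seen. The CD3 chains over Ptprc were -0.46, -1.24, 0.84 and 0.49 in MMP-9-IN-1 ears 1 to 4, against -3.87, -3.35, 0.98 and 1.15 in vehicle ears 1 to 4. Vehicle ears 1 and 2 thus held the least CD3 transcript per CD45 transcript of the 8, and vehicle ears 3 and 4 the most. The difference of 1.18 had an exact permutation p of 0.429. Relative to the CD3 chains, Foxp3 differed by 0.26 (exact permutation p = 0.686), Gzmb by -0.38 (exact permutation p = 0.657) and Ifng by -0.56 (exact permutation p = 0.457), and the adjusted p was 0.857 for all 4.

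**Figure D5:**
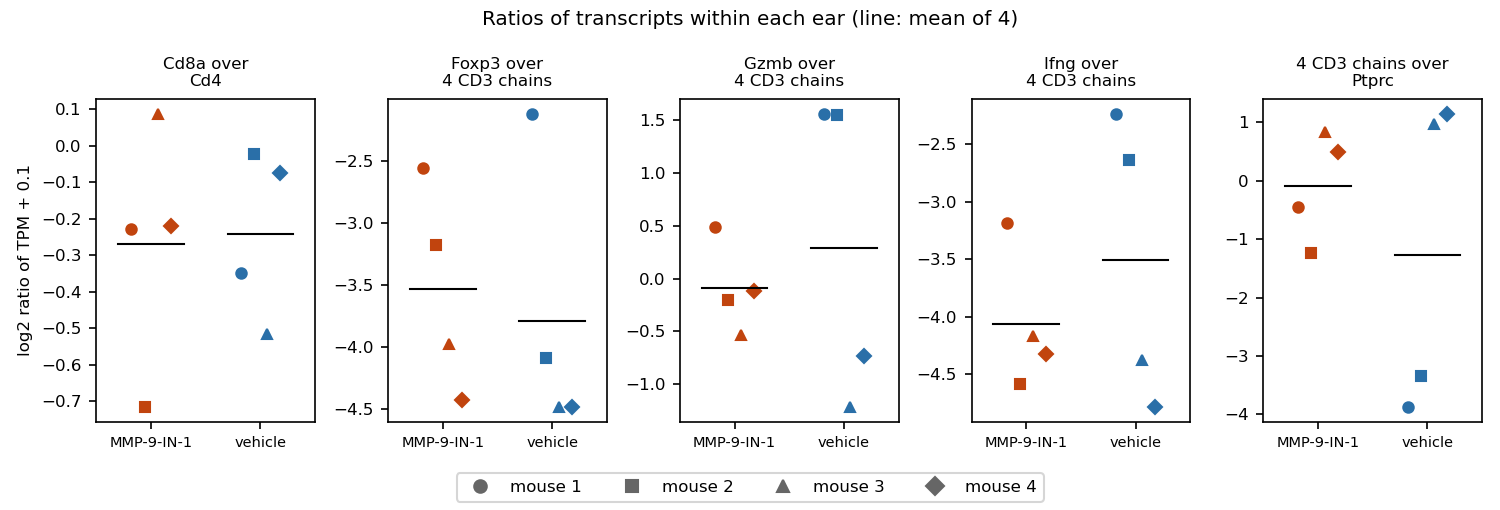
Log2 ratios of TPM (0.1 added) in the 4 MMP-9-IN-1 ears, left, and the 4 vehicle ears, right, with a marker for each mouse number and a line at the group mean. The groups overlap in all 5 panels, and vehicle ears 1 and 2 lie apart from vehicle ears 3 and 4 for Gzmb, Ifng and the CD3 chains over Ptprc.

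Other genes of T cell receptor signalling gave no call between the groups either. Of a further 28 genes of this pathway, all tested, 0 passed, 10 had a higher and 18 a lower estimate, and the median log2 fold change was -0.074. The smallest unadjusted p among them was that of Lef1, a transcription factor of naive T cells, at 0.0781 by edgeR, with a log2 fold change of -0.40 ± 0.20 (SE). Ptprc, which T cells share with neutrophils and all other leukocytes, had 11.0, 45.4, 39.8 and 82.0 TPM in MMP-9-IN-1 ears 1 to 4, against 49.6, 69.3, 36.4 and 59.3 TPM in vehicle ears 1 to 4. Its highest value was in MMP-9-IN-1 ear 4 and its lowest in MMP-9-IN-1 ear 1, and it did not separate ears 3 and 4 from ears 1 and 2. With the mouse number as a term, 12 of these 28 genes passed, beside 7.86% of all genes tested, and the call over all genes fell to 0 without any of the 5 libraries named above for that term.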

How the data were processed

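Sample titles gave the group and a mouse number from 1 to 4 for each of the 8 libraries. Per the labels' protocols, oligo(dT) beads selected messenger RNA, which was read as single ends of 50 bases on a DNBSEQ instrument. HISAT and the GRCm39 build are named in the submitters' processing notes, and no counting tool or annotation is given in the sources used here. Expected counts per gene, deposited by the authors, were taken as such because 33.7% to 35.3% of a library's values missed a whole number by over 1e-09. The authors also deposited TPM values, scaled to gene length and library total. The 8 FPKM columns and 6 columns of group means were not used.

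Expected counts were rounded and tested with edgeR 4.0.16 in R 4.3.3 (filterByExpr, TMM factors of 0.815 to 1.08, quasi-likelihood test of MMP-9-IN-1 minus vehicle, Benjamini-Hochberg adjustment over 15096 genes, threshold 0.05). The biological coefficient of variation was 41.0%. Ratios used log2(TPM + 0.1) and exact permutation over the 70 assignments of 8 libraries. Libraries of 1 group differed by a chi-square per degree of freedom of 23.7 to 304, so none were duplicates. The treatment test was first run on simulated counts without a shared division by mouse number, so that check does not describe its power for the members. Alternatives were DESeq2 1.42.0 and its size factors, other filters and pseudocounts, limma 3.58.1 (voom with quality weights, and trend on TPM), the mouse number as a block, mice 1 and 2 or 3 and 4 only, and each library left out. The mouse number as a term and the summed CD3 chains were added after seeing the data.

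Deviations from the group means of same-numbered libraries correlated at 0.397, 0.710, 0.673 and 0.682 for numbers 1 to 4, all over 0.1. Ears of different numbers correlated as much in places, at 0.554 for MMP-9-IN-1 ear 2 with vehicle ear 1 and 0.685 for MMP-9-IN-1 ear 3 with vehicle ear 4. Lower values were 0.377 for MMP-9-IN-1 ear 4 with vehicle ear 3 and 0.272 for MMP-9-IN-1 ear 1 with vehicle ear 2. The labels give no pairing, and these values do not separate a pairing by number from a division between numbers 1 and 2 and numbers 3 and 4. The members and all lists were chosen with earlier results of these data known. Per-library values are given for the first gene of each role, for Cd8a, Foxp3, Gzmb, Prf1, Ifng, Icos, Ctla4, Il2ra, Cxcr6 and Klrk1, for the member with the highest mean TPM and for the 4 with the smallest p. Of other lists, up to 3 genes with the smallest p and 2 with the highest TPM are named. Cd3g, Lat, Ncr1, Ngp and Csf3r were chosen after their values were seen.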

Additional observations from a re-analysis of the deposited data

Results flagged for a closer look

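The log2 ratio of Foxp3 over Cd3e had a library far from the rest of its group. It was 2.29 in vehicle ear 1, against -0.89, -0.95 and -1.16 in vehicle ears 2 to 4, and the gap to the nearest library took 0.921 of the group's range, above Dixon's critical value for 4 samples. In the MMP-9-IN-1 group the ratio ran from -0.79 to 0.50. Cd3e had 1 read in vehicle ear 1 and Foxp3 had 28.

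With the summed CD3 chains in place of Cd3e, the same ear stood apart by a share of 0.832, just above the critical value, with -2.12 in vehicle ear 1 and -4.09, -4.48 and -4.48 in vehicle ears 2 to 4. These were 2 of 94 groups of 4 examined, where chance sets about 1 in 20 apart. Their cause was not tested.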

How the results depend on the processing

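In every one of the 17 other settings, 0 members and 0 genes were called between MMP-9-IN-1 and vehicle. Only 21 members were tested with at least 1 CPM in every library and 34 in mice 1 and 2 only. All 38 were tested in the rest. The members' median log2 fold change was -0.21 with voom quality weights (8 of 38 higher), 0.41 with limma-trend on TPM (31 higher, where all genes shifted to a median of 0.16), 0.24 with the replicate block, 0.64 in mice 1 and 2 only and 0.059 in mice 3 and 4 only. Without MMP-9-IN-1 ear 4 it was -0.65, with 3 of 38 higher, and without vehicle ear 4 it was 0.94, with 34 of 38 higher.

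Estimates of single genes turned in sign. With voom quality weights they were -0.29 for Cd2, -0.0015 for Cd28, -0.51 for Cxcr3, -0.47 for Gzma, -0.066 for Klrk1, -0.20 for Prf1, -0.20 for Ifng and 0.15 for Tnfrsf4. With the replicate block they were 0.38 for Cd3e, 0.22 for Cd4, 0.25 for Lck, 0.22 for Cd8a and 0.24 for Cxcr6, and the block changed no call. When each library was left out in turn, estimates ran from -0.65 to 0.99 for Cd2, -0.34 to 0.27 for Cd28, -0.78 to 0.90 for Cd3e, -1.01 to 0.75 for Cd4, -0.96 to 1.01 for Cd8a, -0.98 to 1.12 for Cxcr3 and -0.94 to 1.00 for Cxcr6. They ran from -1.50 to 2.06 for Gzma, -0.48 to 0.98 for Gzmb, -0.31 to 1.31 for Icos, -0.45 to 0.60 for Ifng, -0.54 to 0.27 for Il2ra, -0.39 to 1.18 for Klrk1, -0.66 to 0.87 for Lck and -0.67 to 1.37 for Prf1. Without a turn in sign, they ran from -0.89 to -0.16 for Tnfrsf4, 0.040 to 1.21 for Foxp3, 0.084 to 0.47 for Tnfrsf18, 0.12 to 0.97 for Ctla4, -0.50 to -0.057 for Il7r and -1.14 to -0.041 for Tbx21.

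The ratio difference for Foxp3 over Cd3e was -0.20 with a pseudocount of 0.01. With libraries left out it ran from -0.33 to 0.82, that of Cd8a over Cd4 from -0.15 to 0.12, that of Gzmb over Cd3e from -1.17 to 0.047, that of Ifng over Cd3e from -1.34 to -0.13 and that of Cd3e over Ptprc from 0.31 to 2.34. With mice paired by number, no ratio had an exact permutation p under 0.5, and 4 pairs cannot reach the threshold. Members passing for the mouse number were 0 to 30 with a library left out, where 0% to 13.3% of all genes passed. They were 26 with number 1 left out of both groups, beside 10.2% of all genes, and 24 with number 2 left out, beside 2.09%. With number 3 or number 4 left out of both groups they were 0, where 0% of all genes passed. DESeq2 size factors gave 27, beside 7.28% of all genes. The cause of these shifts was not tested. Low read numbers in the ears numbered 1 and 2 limit the 6 to 16 members with under 20 reads there.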

Other observations

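Il10, Gem and Cd69, which T cells share with other cells, had their highest values in vehicle ears 1 and 2, where CD3 transcripts were lowest and the summed neutrophil genes highest, at 31342 and 36094 TPM. Other genes of the same lists ran the other way. Ears 3 and 4 lay above ears 1 and 2 in both groups for 6 of 10 tissue resident and gamma delta genes. The same held for 8 of 20 helper and effector genes, beside 19.5% of all genes tested. The part of neutrophils and other myeloid cells in these values was not tested. Il10, an anti-inflammatory cytokine made by T cells and myeloid cells, had 2.01, 4.75, 2.20 and 3.12 TPM in MMP-9-IN-1 ears 1 to 4, against 26.7, 10.7, 1.48 and 2.37 TPM in vehicle ears 1 to 4. Gem, a small GTPase induced on T cell activation, had 15.0, 18.2, 10.8 and 20.4 TPM in MMP-9-IN-1 ears 1 to 4, against 60.5, 81.3, 11.0 and 15.0 TPM in vehicle ears 1 to 4. Cd69, an early activation and tissue residency marker, had 1.10, 10.7, 6.10 and 11.2 TPM in MMP-9-IN-1 ears 1 to 4, against 16.0, 17.4, 5.92 and 10.1 TPM in vehicle ears 1 to 4. The groups overlapped for all 3 genes, and none passed the test. Their log2 fold changes were -2.03 ± 0.95 (SE) for Il10, -1.69 ± 0.73 for Gem and -0.97 ± 0.71 for Cd69.

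Apart from Il10, the interleukins of other helper types had few reads, at most 20, for Il13 in MMP-9-IN-1 ear 3. Of 31 T helper and effector genes, 20 were tested, 8 with a higher and 12 with a lower estimate, and 0 passed. Il2, Il13, Il17a, Il21 and Il22 were among those listed at 0 in some library. Of 10 tissue resident and gamma delta T cell genes tested, 2 had a higher and 8 a lower estimate, and 0 passed. A further 9 names of that list, the gamma delta receptor segments among them, were not analysed here. Gata3, which skin epithelium also expresses, had 35.5, 40.1, 71.1 and 43.1 TPM in MMP-9-IN-1 ears 1 to 4, against 11.7, 20.7, 65.8 and 66.8 TPM in vehicle ears 1 to 4.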
